A study of Arabidopsis thaliana with 12 samples.

Results

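A set of 10 transcription factor genes of Arabidopsis thaliana was followed through a comparison of snap33 mutant and wild-type seedlings: WRKY33, WRKY25, WRKY26, WRKY3 and WRKY4 of WRKY group I, WRKY6 of group IIb, WRKY11 and WRKY17 of group IId, and WRKY22 and WRKY29 of group IIe. They were chosen by locus and are 10 of the 32744 genes in the count files. All 10 passed the filter on low counts, and 18830 genes were tested. RNA was taken from untreated whole seedlings grown on solid medium under long days, with 3 libraries in each of 4 groups, wild type (WT) and snap33 at 5 d and at 12 d. The labels describe snap33 as a T-DNA insertion knock-out of SNAP33 (AT5G61210), a t-SNARE of plasma membrane vesicle fusion. The series title names the allele snap33-1. Since the genotype field of WT libraries carries mutant wording as well, groups follow the sample titles. The ages are those of the titles. By the dates in the labels, however, snap33 plants of the 12 d group were harvested 32 to 34 days after planting, WT plants of that group 12 to 14 days after it, and all 5 d plants 5 to 7 days after it. Those dates go against the 12 d age in the titles of the 12 d snap33 libraries. Whether the date or the age is in error is not given in the sources used here. If the dates hold, genotype and time since planting cannot be told apart at 12 d.

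WRKY proteins bind W-box elements in promoters, many of them in defence genes and in the promoters of WRKY genes themselves. Group I members carry a pair of WRKY domains and group II members a single one, and the subgroups of group II differ in sequence outside the domain. WRKY33 is phosphorylated by the immune MAP kinases MPK3 and MPK6, is needed for resistance to necrotrophic fungi and activates genes of camalexin and ethylene synthesis. WRKY25 and WRKY26 act with it in heat tolerance, and WRKY25 binds the MPK4 substrate MKS1, as WRKY33 does. WRKY3 and WRKY4 act in resistance to necrotrophs, WRKY6 in senescence, defence and phosphate transport, WRKY11 and WRKY17 as negative regulators of basal resistance, and WRKY22 and WRKY29 downstream of flagellin perception.

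The group labels were checked against the reference genome (RefSeq TAIR10.1). The WRKY core of 7 residues was found 2 times in the predicted protein of each of the 5 group I genes and 1 time in each of the 5 group II genes, with the same number of zinc finger motifs. The short motif GHARFRR, searched for as a mark of group IId, was found in WRKY11 and WRKY17 and in no other of the 10. The coding DNA of the core is shown for 1 gene of each group because the number of cores separates group I from group II. All 15 cores of the 10 genes encode the same 7 residues, and capitals mark bases that differ from the first core of WRKY33.
WRKY33 core 1 (chr2:16109358-16109378, + strand): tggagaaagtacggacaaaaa
WRKY33 core 2 (chr2:16109982-16110002, + strand): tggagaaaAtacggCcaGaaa
WRKY6 core (chr1:23017701-23017721, - strand): tggagaaaAtaTggCcaGaaG
WRKY11 core (chr4:15290359-15290379, - strand): tggagGaagtacggacaaaaa
WRKY22 core (chr4:523503-523523, - strand): tggCgaaagtacggacaGaaa
The second core of WRKY33 differed from its first in 3 of 21 bases, and the cores of WRKY6, WRKY11 and WRKY22 in 5, 1 and 2. Predicted proteins ran from 298 residues (WRKY22) to 553 (WRKY6). WRKY11 and WRKY17 were identical at 76.3% of the residues of the shorter protein, WRKY3 and WRKY4 at 72.1%, WRKY33 and WRKY26 at 56.3%, WRKY33 and WRKY25 at 45.8%, and WRKY22 and WRKY29 at 39.3%.

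Upstream sequence is shown for 4 genes with different responses in the results that follow: WRKY33 and WRKY25, which were higher in snap33 at both ages, WRKY29, which was higher at 12 d, and WRKY3, which was lower at 12 d. Each line gives the 250 bases before the annotated gene start in TAIR10.1, read along the gene's strand, and capitals mark the W-box core TTGAC on either strand (GTCAA on the gene's strand).
WRKY33 promoter (chr2:16107985-16108234, + strand): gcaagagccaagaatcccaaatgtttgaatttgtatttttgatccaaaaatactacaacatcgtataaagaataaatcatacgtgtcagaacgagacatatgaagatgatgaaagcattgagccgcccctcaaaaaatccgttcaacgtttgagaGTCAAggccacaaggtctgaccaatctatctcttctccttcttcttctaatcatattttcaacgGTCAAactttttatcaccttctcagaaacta
WRKY25 promoter (chr2:12905339-12905588, - strand): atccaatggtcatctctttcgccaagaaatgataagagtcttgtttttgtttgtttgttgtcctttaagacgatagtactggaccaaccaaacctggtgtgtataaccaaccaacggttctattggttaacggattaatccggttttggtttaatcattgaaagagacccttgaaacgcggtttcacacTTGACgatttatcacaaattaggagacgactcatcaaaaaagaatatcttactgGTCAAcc
WRKY29 promoter (chr4:12291382-12291631, + strand): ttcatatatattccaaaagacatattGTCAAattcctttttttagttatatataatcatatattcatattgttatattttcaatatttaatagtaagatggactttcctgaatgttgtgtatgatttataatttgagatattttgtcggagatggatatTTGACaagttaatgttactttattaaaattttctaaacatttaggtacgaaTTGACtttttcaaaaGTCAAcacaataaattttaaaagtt
WRKY3 promoter (chr2:1017223-1017472, - strand): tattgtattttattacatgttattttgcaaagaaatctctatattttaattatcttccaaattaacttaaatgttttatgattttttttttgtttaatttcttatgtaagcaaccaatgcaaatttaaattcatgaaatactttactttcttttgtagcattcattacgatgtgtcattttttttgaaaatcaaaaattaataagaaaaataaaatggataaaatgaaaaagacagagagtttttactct
Of 27443 protein-coding genes, 44.9% had at least 1 match in this window, 14.1% at least 2 and 3.38% at least 3. WRKY29 had 4 matches, WRKY11 3, WRKY33, WRKY25 and WRKY17 2 each, WRKY26 and WRKY6 1 each, and WRKY3, WRKY4 and WRKY22 0. The longer forms TTGACC and TTGACT, which contain the core, were found 2 times upstream of WRKY33, WRKY17 and WRKY29 and 1 time upstream of WRKY25, WRKY26 and WRKY11, against at least 1 in 28.4% and at least 2 in 6.18% of all genes. Over 1000 bases, all 10 genes held at least 2 cores (65.0% of all genes do), with 9 upstream of WRKY17 and 8 upstream of WRKY11. These matches describe letters in the windows and not bound sites.

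**Figure D1:**
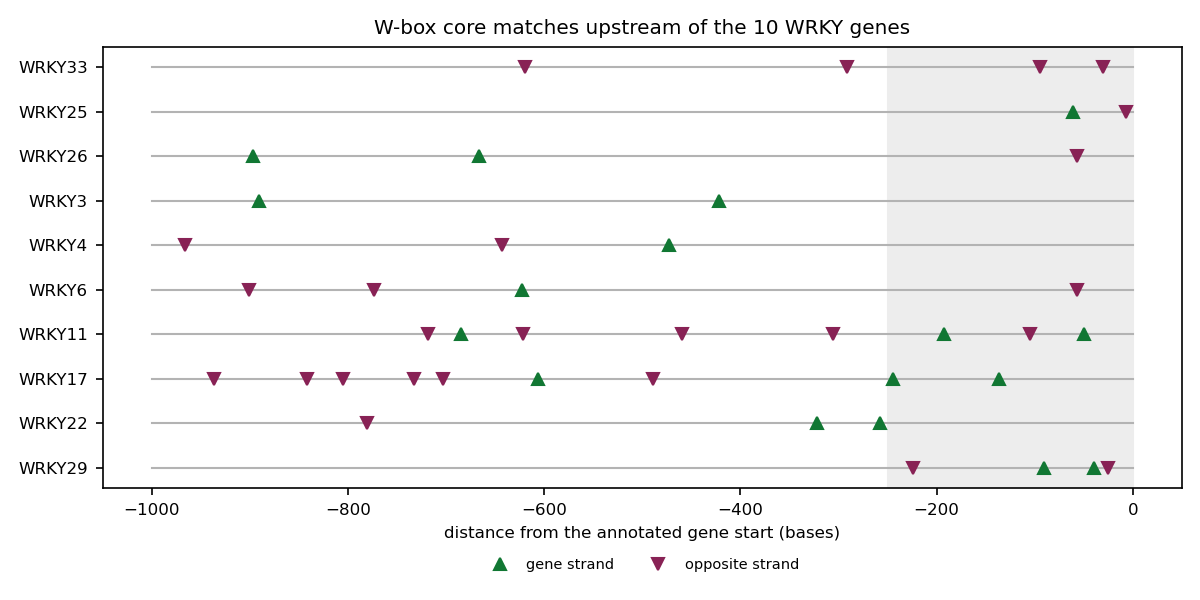
Each row is 1 of the 10 WRKY genes, the horizontal axis is the distance in bases from the annotated gene start, and triangles mark matches of the W-box core on the gene's strand (up) or the opposite strand (down). In the shaded 250 bases, WRKY29 has 4 matches and WRKY3, WRKY4 and WRKY22 have 0.

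Gene counts summed to 4304441 to 5754570 per library. SNAP33 was low in every snap33 library, with 1 to 8 counts at 5 d against 95 to 109 in WT (log2 fold change -4.48, SE 0.31, or -5.46 without snap33 5 d replicate 3) and 14 to 16 against 108 to 168 at 12 d (-3.15, SE 0.23). SNAP33 overlaps an antisense non-coding gene over 257 bases and an antisense neighbour over 59. Within WT at 12 d, replicate 3 stood farther from replicates 1 and 2 (chi-square per degree of freedom 7.58 and 9.98) than those did from each other (3.97). The protocol text of snap33 12 d replicate 1 alone names a 3' sequencing format. Photosynthetic leaf markers (RBCS1A, LHCB1.3 and LHCB2.1) were high in all libraries, seed markers summed to at most 3.12 counts per 1000000 gene counts (CPM) and reproductive organ markers to at most 1.16. Tissue markers differed between genotypes at both ages. At 5 d the summed level of the 2 root hair markers was 16.7 to 27.3 CPM in snap33 and 29.0 to 36.7 in WT. COBL9 was called lower (-0.68, SE 0.22, edgeR adjusted p = 0.0431) and EXPA7 was not called (-0.28, SE 0.23). The 2 endodermis markers summed to 64.9 to 75.6 CPM in snap33 and 78.1 to 85.5 in WT at 5 d, with 0 of 2 called. At 12 d the summed level of the endodermis markers was 57.2 to 58.0 CPM in snap33 and 89.4 to 161 in WT, that of the root hair markers 15.3 to 18.1 against 28.0 to 47.9, and that of the 3 leaf markers 5949 to 6889 against 8155 to 9062. Both endodermis markers, both root hair markers, 2 of 3 leaf markers and 1 of 2 guard cell markers (MYB60) were called lower at 12 d. The 5 markers of ageing leaves summed to 787 to 845 CPM in snap33 against 257 to 513 in WT at 12 d, and to 182 to 231 against 137 to 177 at 5 d, with SAG12 at 0 counts in every group. Of the 4 ageing markers tested at 12 d, 3 were called higher (SAG13, ORE1 and NYE1) and 1 lower (SAG29). Of all tested genes 21.1% were higher and 20.5% lower at that age. At 5 d 1 of the 4 was called, NYE1, which was higher. Most of the 5 d sum was SAG29 (means of 149 CPM in snap33 and 125 in WT), which was not called there. In whole seedlings, a change in the share of cells that express a gene and a change in RNA per cell cannot be told apart. The part of these differences in the results for the WRKY genes, at 5 d or at 12 d, was not tested.

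At 5 d the comparison of snap33 with WT asked which genes already differ in young seedlings. WRKY33 and WRKY25 were higher in snap33 and 8 of the 10 genes were not called, at an adjusted p under 0.05 with edgeR's quasi-likelihood test. Of all tested genes 13% were called at this age, 8.22% higher and 4.77% lower. The median log2 fold change of the 10 genes was 0.15, against -0.0034 for all tested genes. Libraries of the 2 genotypes did not overlap for 2 of the 10 genes, WRKY33 and WRKY25, against 32% of all tested genes.

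WRKY33 (AT2G38470; chromosome 2, 16108235 to 16110766, + strand) stood at 8.48, 9.21 and 8.93 CPM in WT replicates 1 to 3 and at 13.6, 13.2 and 16.0 CPM in snap33 at 5 d. Every snap33 library lay above every WT library. The gene was 1.60-fold higher (log2 fold change 0.68, SE 0.16, edgeR adjusted p = 0.00629), and the call was kept under all 18 alternative settings (adjusted p 0.0045 to 0.0394). WRKY33 overlaps an antisense non-coding gene over 272 bases and the end of a neighbouring antisense gene over 26, and whether counting used strand is not given in the sources used here. WRKY25 (AT2G30250; chromosome 2, 12903208 to 12905338, - strand) stood at 11.6, 9.41 and 11.8 CPM in WT and 16.3, 15.8 and 18.1 in snap33, 1.53-fold higher (0.62, SE 0.17, edgeR adjusted p = 0.0196). Again the genotypes did not overlap, but the call was lost without WT 5 d replicate 2 (edgeR adjusted p = 0.0993) or snap33 5 d replicate 3 (0.0799), the 18 alternatives giving 0.00855 to 0.0993.

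The other group I genes were not called at 5 d. WRKY26 (AT5G07100; chromosome 5, 2204206 to 2205965, + strand) was scarce, with 6 to 10 counts per WT library and 7, 13 and 23 in snap33. Its CPM of 1.54, 3.12 and 5.48 in snap33 spread across and above the WT values of 2.01, 1.96 and 1.34, and its fold change of 0.90 (SE 0.41, edgeR adjusted p = 0.163) was the least precise of the 10. Single snap33 libraries decided it: without snap33 5 d replicate 1 it was called (1.26, edgeR adjusted p = 0.0408), and without replicate 3 it dropped to 0.37 (0.679). WRKY4 stood at 16.3, 13.7 and 21.2 CPM in WT and 19.6, 26.4 and 21 in snap33 (0.39, SE 0.19). WRKY3 stood at 8.04, 7.45 and 10.0 CPM in WT and 7.04, 6.24 and 8.34 in snap33 (-0.23, SE 0.20). Neither gene separated the genotypes at 5 d.

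Group II genes all overlapped between genotypes at 5 d, and 0 of 5 were called. For WRKY6 the log2 fold change was 0.16 (SE 0.18). WRKY11 stood at 16.3, 22.3 and 18.3 CPM in WT and 13.6, 11.3 and 18.6 in snap33 (-0.39, SE 0.22), its snap33 libraries spanning most of the range. WRKY17 was close in both genotypes, at 38.2, 36.1 and 41.5 CPM in WT and 41.1, 38.4 and 42.0 in snap33 (0.07, SE 0.16). WRKY22 stood at 14.3, 9.21 and 9.15 CPM in WT, where replicate 1 was the high one, and at 10.1, 11.3 and 14.5 in snap33 (0.14, SE 0.21). Its direction turned without snap33 5 d replicate 3 (-0.02). WRKY29 stood at 6.70, 5.88 and 7.37 CPM in WT and 5.50, 6.48 and 5.96 in snap33 (-0.15, SE 0.25).

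**Figure D2:**
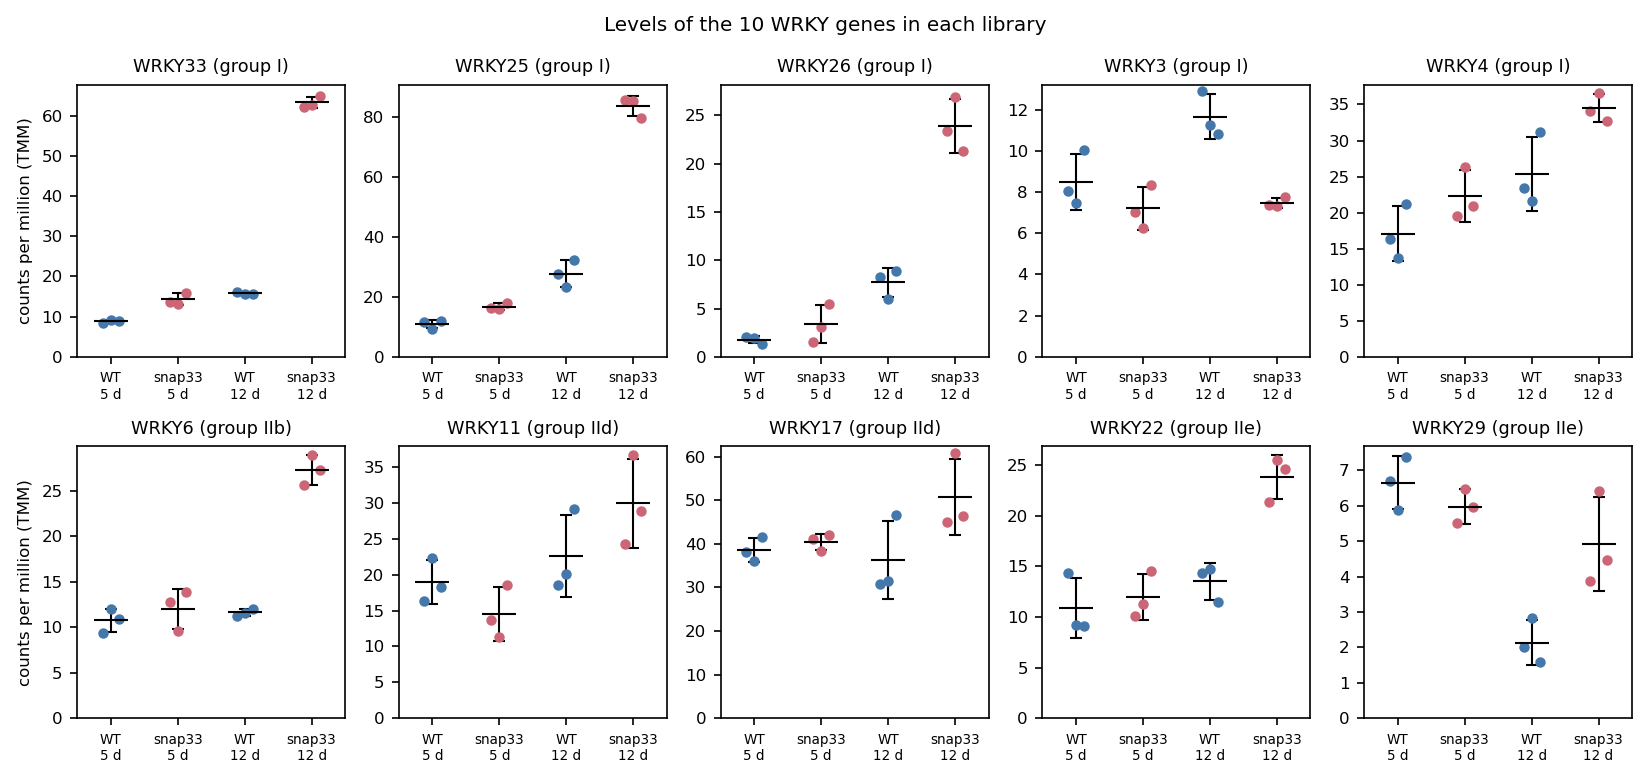
Each panel shows 1 gene, with CPM after TMM scaling on a linear axis from 0, a point for each library, a horizontal bar for the mean of 3 libraries and error bars for the SD. WRKY33, WRKY25, WRKY26, WRKY4, WRKY6 and WRKY22 have their 3 highest libraries in snap33 at 12 d, and WRKY29 its 3 lowest in WT at 12 d.

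At 12 d the same comparison gave 8 of the 10 genes higher in snap33 (WRKY33, WRKY25, WRKY26, WRKY4, WRKY6, WRKY17, WRKY22 and WRKY29), 1 lower (WRKY3) and 1 not called (WRKY11). Of all tested genes 41.6% were called, 21.1% higher and 20.5% lower. The median log2 fold change of the 10 was 0.99, against -0.037 for all tested genes. The genotypes did not overlap for 8 of the 10, against 50.2% of all tested genes, the exceptions being WRKY11 and WRKY17. With upper-quartile scaling the median of all genes moved to -0.156, and 3199 genes were called higher and 5186 lower in place of 3964 and 3862. Under that scaling WRKY4 and WRKY17 were no longer called, and no member changed direction at 12 d.

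WRKY33 had the largest change of the 10. It stood at 16.1, 15.6 and 15.6 CPM in WT and at 62.2, 62.8 and 64.9 CPM in snap33 at 12 d, 4.01-fold higher (log2 fold change 2.0, SE 0.12, edgeR adjusted p = 1.02e-10). The SD was 0.30 CPM in WT and 1.44 in snap33, and the groups lay far apart next to these values. With 3 libraries of 80, 94 and 79 counts in WT, so small an SD may understate the spread. WRKY25 stood at 27.6, 23.2 and 32.3 CPM in WT and 85.8, 85.3 and 79.7 in snap33, 3.02-fold higher (1.60, SE 0.13, edgeR adjusted p = 6.86e-09). Its WT libraries varied more than those of WRKY33, with replicate 3 the highest. WRKY26 stood at 8.26, 5.97 and 8.87 CPM in WT and 23.4, 26.9 and 21.3 in snap33, 3.12-fold higher (1.64, SE 0.22, edgeR adjusted p = 7.47e-06). Every snap33 library of WRKY26 lay above every WT library.

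WRKY3 and WRKY4, the closest relatives among the group I genes, moved in opposite directions at 12 d. WRKY3 (AT2G03340; chromosome 2, 1014350 to 1017222, - strand) stood at 12.9, 11.3 and 10.8 CPM in WT and 7.36, 7.32 and 7.75 in snap33, 1.56-fold lower (-0.64, SE 0.18, edgeR adjusted p = 0.00794). It was the only one of the 10 below WT at 12 d, and its call was kept under all 18 alternatives (adjusted p 0.00208 to 0.0474). WRKY4 (AT1G13960; chromosome 1, 4776283 to 4779420, + strand) stood at 23.4, 21.6 and 31.1 CPM in WT and 34, 36.6 and 32.8 in snap33, 1.36-fold higher (0.45, SE 0.17, edgeR adjusted p = 0.0376). The genotypes did not overlap for either gene, but WT replicate 3 of WRKY4 lay close to the snap33 libraries. The WRKY4 call was lost with the replicate block of shared harvest date (edgeR adjusted p = 0.0631) and without WT 12 d replicate 1 (0.0959) or 2 (0.153) or snap33 12 d replicate 1 (0.076), 2 (0.114) or 3 (0.0608), with 0.00412 to 0.153 over all alternatives. WRKY4 overlaps the end of an antisense gene over 70 bases.

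WRKY6 (AT1G62300; chromosome 1, 23016569 to 23019494, - strand), the group IIb gene, stood at 11.3, 11.6 and 12.0 CPM in WT and 25.6, 28.9 and 27.3 in snap33 at 12 d. This was 2.34-fold higher (1.23, SE 0.15, edgeR adjusted p = 2.54e-06), with no overlap. The WT libraries of 5 d (9.38, 12.0 and 10.9 CPM) overlapped those of 12 d, and the 5 d snap33 libraries (12.8, 9.60 and 13.8 CPM) overlapped both WT groups.

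Both group IId genes had overlapping genotypes at 12 d. WRKY17 (AT2G24570; chromosome 2, 10437353 to 10439469, - strand) stood at 30.8, 31.5 and 46.7 CPM in WT and 45.1, 60.8 and 46.3 in snap33 at 12 d (0.48, SE 0.15, edgeR adjusted p = 0.0167). WT replicate 3 lay above 2 of the 3 snap33 libraries. Upper-quartile scaling ended the call (edgeR adjusted p = 0.0554), as did leaving out WT 12 d replicate 1 (0.0706) or 2 (0.0784) or snap33 12 d replicate 2 (0.123), and the alternatives gave 0.000368 to 0.123. WRKY11 (AT4G31550; chromosome 4, 15289788 to 15291934, - strand) stood at 18.5, 20.1 and 29.2 CPM in WT and 24.3, 36.6 and 28.9 in snap33, and was not called (0.41, SE 0.20, edgeR adjusted p = 0.105). Here too WT replicate 3 was the high one of its group, and without it WRKY11 was called (0.63, edgeR adjusted p = 0.0113, with 0.0113 to 0.422 over all alternatives) and WRKY17 had its largest value (0.70).

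Both group IIe genes were higher in snap33 at 12 d. WRKY22 (AT4G01250; chromosome 4, 522530 to 524249, - strand) stood at 14.3, 14.8 and 11.4 CPM in WT and 21.4, 25.4 and 24.6 in snap33, 1.76-fold higher (0.81, SE 0.18, edgeR adjusted p = 0.00116). WRKY29 (AT4G23550; chromosome 4, 12291632 to 12293367, + strand) stood at 2.01, 2.82 and 1.58 CPM in WT and 3.87, 6.41 and 4.46 in snap33, 2.25-fold higher (1.17, SE 0.29, edgeR adjusted p = 0.00297). Neither gene had overlapping genotypes, and both calls were kept under all 18 alternatives. WRKY29 rested on few reads, 8 to 17 counts per WT library and 21 to 35 per snap33 library, and it overlaps an antisense gene over 251 bases.

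**Figure D3:**
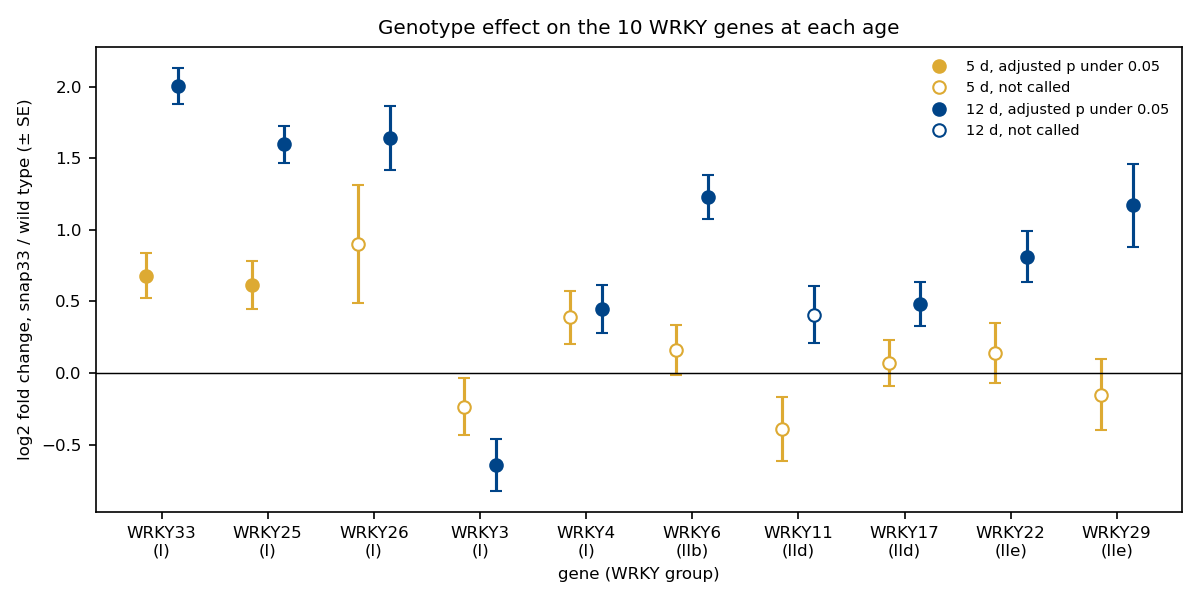
For each gene the log2 fold change of snap33 over WT is drawn at 5 d (yellow) and 12 d (blue), with error bars for the SE and filled points for an adjusted p under 0.05. WRKY33 rises from 0.68 at 5 d to 2.0 at 12 d, and WRKY3 is the only gene below 0 at 12 d (-0.64).

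The difference between the genotype effects at 12 d and 5 d was tested in the same fit. It was called for 4 of the 10 genes, all with a larger effect at 12 d, against 23.7% of all tested genes, 11.0% in that direction and 12.8% in the other. The difference was 1.32 on the log2 scale for WRKY33 (SE 0.20, edgeR adjusted p = 9.33e-05), 1.06 for WRKY6 (SE 0.23, 0.00256), 0.98 for WRKY25 (SE 0.21, 0.00232) and 1.32 for WRKY29 (SE 0.38, 0.0162). Leaving out snap33 12 d replicate 2 ended the WRKY29 call (edgeR adjusted p = 0.0589, with 0.00974 to 0.0589 over all alternatives). WRKY11 missed the threshold (0.80, SE 0.30, edgeR adjusted p = 0.0575) and passed it without WT 12 d replicate 3 (1.02, 0.00824), without snap33 5 d replicate 3 (0.0253), without snap33 12 d replicate 1 (0.0402) and without the low-count filter (0.0254), with 0.00824 to 0.16 over all alternatives. WRKY17 (0.41, SE 0.22, edgeR adjusted p = 0.198) passed it without WT 12 d replicate 3 (0.63, 0.0172), and WRKY22 (0.67, SE 0.28, 0.0844) without snap33 5 d replicate 3 (0.83, 0.0481). For WRKY4 the effects at the 2 ages were close (difference 0.06, SE 0.25). If the planting dates in the labels hold, the 12 d effects also hold a longer time since planting of the snap33 plants.

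Between the ages, WT seedlings had 4 of the 10 genes higher at 12 d (WRKY33, WRKY25, WRKY26 and WRKY4), 1 lower (WRKY29) and 5 not called, against 40.7% of all tested genes, 21.5% higher and 19.2% lower. The ages did not overlap for 6 of the 10, against 48.3% of all tested genes. WRKY26 changed most in WT, 4.25-fold (2.09, SE 0.34), followed by WRKY25 at 2.53-fold (1.34, SE 0.16) and WRKY33 at 1.77-fold (0.82, SE 0.15). WRKY29 fell by 1.60 on the log2 scale (SE 0.28, edgeR adjusted p = 0.00016), from 6.70, 5.88 and 7.37 CPM at 5 d to the 12 d values given above, with no overlap. The WT call of WRKY4 (0.57, edgeR adjusted p = 0.0159) was lost without WT 5 d replicate 1 (0.0527) or 2 (0.0949) or WT 12 d replicate 3 (0.0826), with 0.0063 to 0.0949 over all alternatives. WRKY3, at 0.46 (SE 0.18, edgeR adjusted p = 0.0509), lay at the threshold, and it was called without WT 5 d replicate 3 (0.0341), snap33 5 d replicate 2 (0.0498) or WT 12 d replicate 3 (0.0472), with 0.0341 to 0.181 over all alternatives. WRKY22 (0.32, SE 0.20) was called only without WT 5 d replicate 1 (0.56, edgeR adjusted p = 0.0463, with 0.0463 to 0.507 over all alternatives).

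In snap33 7 of the 10 genes were higher at 12 d than at 5 d (WRKY33, WRKY25, WRKY26, WRKY4, WRKY6, WRKY11 and WRKY22), 0 lower and 3 not called, against 54.8% of all tested genes, 28.2% higher and 26.6% lower. The ages did not overlap for 8 of the 10, against 63.0% of all tested genes. With upper-quartile scaling 4371 of all genes were higher and 6313 lower, in place of 5305 and 5010, and the same number of members, 7, was called. WRKY26 was 7.10-fold (2.83, SE 0.27), WRKY25 4.99-fold (2.32, SE 0.14) and WRKY33 4.43-fold higher (2.15, SE 0.13). WRKY11 stood at 13.6, 11.3 and 18.6 CPM at 5 d and was 2.06-fold higher at 12 d (1.04, SE 0.21, edgeR adjusted p = 0.000356), with no overlap. WRKY29, which fell with age in WT, was not called in snap33 (-0.28, SE 0.25). WRKY17 (0.33, SE 0.16, edgeR adjusted p = 0.0843) was called when WT 12 d replicate 3 was left out (0.0302) and with only the groups compared (0.0425). The comparisons over age share libraries with the genotype comparisons and are no separate evidence for them.

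Levels were set against each other between genes as CPM per kilobase of exon, which assumes reads along the whole transcript. The 3' format named for snap33 12 d replicate 1 would not meet that assumption. In WT at 5 d WRKY17 was the most abundant of the 10 at 25.1 ± 1.79 CPM per kb (SD, n = 3) and WRKY26 the least at 1.12 ± 0.24, and both were separated from their neighbours in the order by a gap without overlap. Between them WRKY3, WRKY33, WRKY6 and WRKY29 (3.87 to 4.77 CPM per kb) overlapped from each to the next, as did WRKY25, WRKY4, WRKY22 and WRKY11 (6.17 to 10.4). In WT at 12 d WRKY17 again led (23.7 ± 5.85) and WRKY29 was last (1.53 ± 0.45). In snap33 at 12 d the order was led by WRKY25 at 47.1 ± 1.91 CPM per kb, above WRKY17 at 33 ± 5.67 and WRKY33 at 31.2 ± 0.71, which overlapped each other, and WRKY29 (3.52 ± 0.95) and WRKY3 (3.40 ± 0.11) were last and overlapped. The order of WRKY17 and WRKY33 in that group depends on the division by length, since undivided CPM were 45.1 to 60.8 for WRKY17 and 62.2 to 64.9 for WRKY33.

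Over the 4 groups, WRKY33 was lowest in WT at 5 d and highest in snap33 at 12 d, and snap33 at 5 d and WT at 12 d overlapped between them. WRKY25 had no overlap between any neighbours in the order WT 5 d, snap33 5 d, WT 12 d and snap33 12 d. WRKY26 followed that order with an overlap between the 5 d groups. WRKY4, WRKY6 and WRKY22 had snap33 at 12 d above all other groups without overlap, and WRKY29 had WT at 12 d below all others. WRKY17 in snap33 at 12 d lay above both 5 d groups but overlapped WT at 12 d. WRKY11 overlapped between all neighbouring groups.

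The ratio of related genes within a library needs no scaling between libraries, and 4 such ratios were compared between genotypes with an exact permutation test within ages (400 arrangements, two-sided, smallest p 0.005, adjusted over the 4 pairs). The log2 ratio of WRKY3 over WRKY4 was -1.01, -0.87 and -1.07 in WT and -1.46, -2.06 and -1.32 in snap33 at 5 d. At 12 d it was -0.85, -0.93 and -1.51 in WT and -2.20, -2.31 and -2.07 in snap33. At both ages every snap33 library lay below every WT library, by 0.63 at 5 d and 1.09 at 12 d (means; for each age alone exact p = 0.1, the smallest 3 against 3 libraries can give). Over both ages the mean difference was -0.86 (exact permutation p = 0.005, adjusted 0.02). The ratio WRKY11 over WRKY17 differed by -0.28 (exact permutation p = 0.08, adjusted 0.107), WRKY33 over WRKY25 by 0.23 (p = 0.07, adjusted 0.107) and WRKY22 over WRKY29 by -0.03 (p = 0.87). For WRKY22 over WRKY29 the ratio stood apart by age instead, at 0.31 to 1.27 in the 5 d libraries and 1.97 to 2.78 in those of 12 d. The pairs were fixed with the genotype effects of these genes known.

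**Figure D4:**
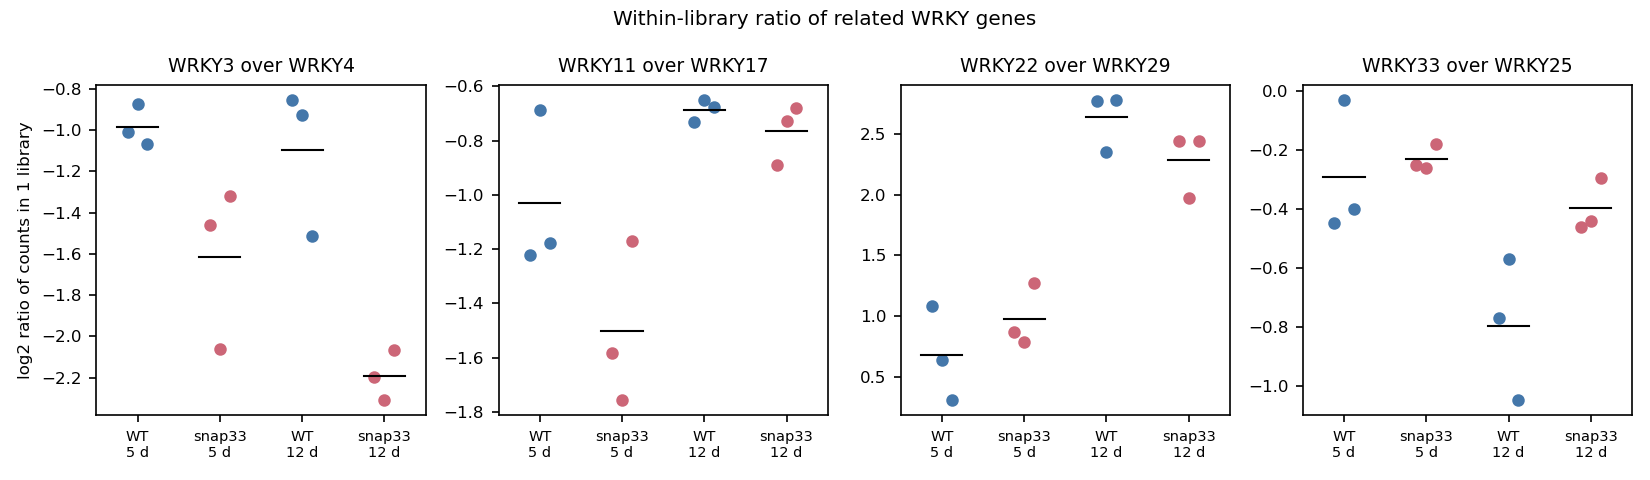
Each panel shows the log2 ratio of the counts of 2 related genes in 1 library, with a point for each library and a bar for the mean of 3. For WRKY3 over WRKY4 the snap33 libraries lie below the WT libraries of the same age, with means of -1.61 against -0.98 at 5 d and -2.19 against -1.10 at 12 d.

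Other genes of the same WRKY groups were counted from lists of 25 genes, of which 21 were tested. In group I, WRKY2 (0.98, SE 0.17) and WRKY58 (3.29, SE 0.46) were higher in snap33 at 12 d, 0 of 6 tested genes lower and 4 not called, and 0 of 6 were called at 5 d. WRKY58 had 7 counts over the WT and 72 over the snap33 libraries, and it passed the low-count filter only through the latter. In group IIb, WRKY31, WRKY72 and WRKY61 were higher and 3 of 6 not called at 12 d, and 0 were called at 5 d. WRKY31 stood at means of 2.47 CPM in WT and 40.0 in snap33, 15.9-fold higher (3.99, SE 0.28), which is larger than the change of any of the 10 genes described here. WRKY72 was 2.60-fold higher (1.38, or 1.98 without WT 12 d replicate 3), and WRKY61 (0.54, SE 0.19, edgeR adjusted p = 0.0299) lost its call under 6 alternatives (adjusted p up to 0.146), 3 of them without WT 12 d replicate 1 or snap33 12 d replicate 2 or 3. WRKY61 overlaps an antisense non-coding gene over 216 bases, and WRKY2 of group I an antisense gene over 43.

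In group IId, WRKY21 was higher at both ages (1.67-fold at 5 d and 1.41-fold at 12 d), WRKY15 1.80-fold higher at 12 d, and no tested gene lower. In group IIe, WRKY35 (-1.13, SE 0.28) and WRKY14 (-0.87, SE 0.25) were lower at 12 d, 3 of 5 not called and 0 higher. The call of WRKY14 was lost without WT 12 d replicate 3 (-0.49, edgeR adjusted p = 0.0719) or snap33 12 d replicate 1 (-0.69, 0.056), with 0.00156 to 0.0719 over all alternatives. The median log2 fold change at 12 d was 0.46, 0.35, 0.38 and -0.36 over the tested genes of the I, IIb, IId and IIe lists, against -0.037 for all tested genes. Called in either direction at 12 d were 2 of 6 in list I, 3 of 6 in IIb, 2 of 4 in IId and 2 of 5 in IIe. These counts lay near the 41.6% of all tested genes called at that age.

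Immune MAP kinases and WRKY-binding VQ proteins were higher in snap33 at 12 d. Of 9 immune MAP kinases, 2 were higher at 5 d (MEKK1, 1.34-fold, and MPK3, 1.40-fold) and 8 at 12 d, with 0 lower at either age and MPK6 the one not called at 12 d (medians 0.29 and 1.14). Of all tested genes 8.22% were higher at 5 d and 21.1% at 12 d (medians -0.0034 and -0.037). MKK4, a kinase that activates MPK3 and MPK6, was 2.84-fold, MPK3 2.36-fold and MPK4 2.20-fold higher at 12 d. The 5 d call of MPK3 (edgeR adjusted p = 0.0215) was lost without WT 5 d replicate 1 (0.1) or 3 (0.0811) or snap33 5 d replicate 2 (0.067). That of MEKK1 (0.0311) was lost with the replicate block (0.0909) and without WT 5 d replicate 1 (0.0632) or 2 (0.142) or snap33 5 d replicate 1 (0.0666) or 2 (0.109). MKK4 overlaps a neighbour on the same strand over 204 bases, MPK4 an antisense neighbour over 929 and MPK3 one over 192. All 3 VQ proteins that bind WRKY25 or WRKY33 were higher at 12 d and 0 were called at 5 d. SIB1, which binds WRKY33, stood at 3.70 CPM in WT and 105 in snap33 (28.1-fold), SIB2 was 2.51-fold and MKS1 2.54-fold higher. SIB2 overlaps an antisense gene over 920 bases, and MKS1 overlaps antisense genes over 159 and 128.

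Genes reported as targets followed no single pattern. Of all tested genes 21.1% were higher at 12 d and 8.22% at 5 d (medians -0.037 and -0.0034). All 11 listed targets of WRKY33 were higher at 12 d (median 4.14, range 1.51 to 6.47) and 1, NCED3, at 5 d (2.74-fold). They include PAD3, the last enzyme of camalexin synthesis (17.7-fold), CYP71A13 and CYP71A12, near-identical enzymes of that pathway between which reads cannot be divided with certainty (77.7-fold and 25.4-fold), and NCED3, an abscisic acid synthesis gene that WRKY33 is reported to repress (2.85-fold at 12 d). CYP71A13 also overlaps an antisense gene over 572 bases, and its log2 fold change of 6.28 rose to 7.18 without WT 12 d replicate 2, its WT counts being 14, 43 and 7. CYP82C2, at the top of the range, NCED5, PROPEP2, PROPEP3 and ALD1 had 16, 1, 7, 18 and 20 counts over WT libraries at 12 d. Over the snap33 libraries of that age they had 1462, 58, 127, 235 and 387. These genes and CYP71A13 passed the low-count filter only through snap33 at 12 d. Their place in the count of 11 is therefore partly set by the filter, and their lack of a call at 5 d rests on few counts. Of 3 genes under WRKY6, the receptor kinase gene FRK1 was higher at 12 d (7 counts over WT and 118 over snap33 libraries), PHO1, a phosphate exporter that WRKY6 represses, was lower (-0.50, SE 0.14), and RAV1 was not called. FRK1 too passed the filter only through snap33 at 12 d, and it overlaps an antisense gene over 175 bases. AOS and LOX2, jasmonate synthesis genes reported to be affected by WRKY11 and WRKY17, were higher at both ages, 3.52-fold and 8.12-fold at 5 d and 1.56-fold and 1.57-fold at 12 d.

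Of all tested genes 8.22% were higher and 4.77% lower at 5 d, and 21.1% higher and 20.5% lower at 12 d. Of 4 flagellin response genes, 0 were higher and 1 lower at 5 d (CYP81F2, -1.44, SE 0.30), and 3 were higher and 1 lower at 12 d. The 3 include FRK1, which the WRKY6 list also holds. NHL10 was 34.9-fold and CYP81F2 4.62-fold higher at 12 d, and PHI1 was lower (-0.69, SE 0.14). The rapid wound and touch list, whose genes respond within minutes to handling, had 8 of 12 members higher at 5 d and 11 at 12 d, with 0 lower. Its medians were 0.66 and 1.59, against -0.0034 and -0.037 for all tested genes. ERF1A, an ethylene response factor, was 3.40-fold higher at 5 d and 6.76-fold at 12 d, and ZAT12, a zinc finger factor, 1.54-fold and 7.69-fold. ZAT12 lost its 5 d call without WT 5 d replicate 2 (edgeR adjusted p = 0.053). The part of handling in the levels of the WRKY genes was not tested.

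**Figure D5:**
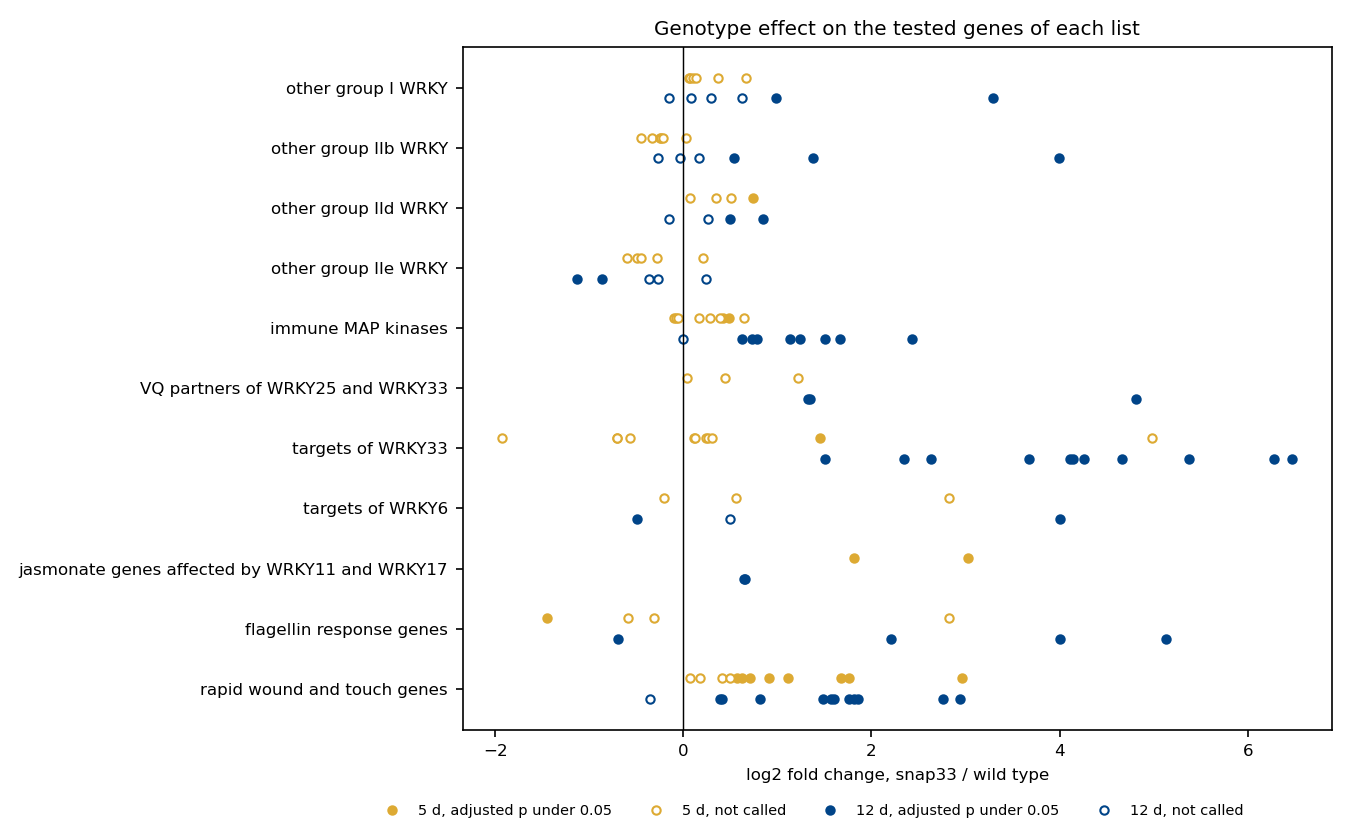
Each point is 1 tested gene of a list, placed by its log2 fold change of snap33 over WT at 5 d (yellow) or 12 d (blue), filled where the adjusted p is under 0.05. All 11 listed targets of WRKY33 lie between 1.51 and 6.47 at 12 d, while the lists of related WRKY genes lie on both sides of 0. Several of the 11 targets had few counts outside snap33 at 12 d.

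The genes most like each member over the 12 libraries were picked by Pearson correlation of log2 CPM, as a description, since the points share 4 groups and the same scaling. For WRKY33 they were DMR6 (AT5G24530), a salicylic acid hydroxylase (r = 0.997), AT3G22910 (0.996) and AT4G28570 (0.995). The closest were AT5G39090 for WRKY25 (0.993), AT1G78200 for WRKY26 (0.989), AT5G44568 for WRKY6 (0.986) and AT5G20120 for WRKY4 (0.983). The others were AT2G48090 for WRKY22 (0.96), IGMT3 for WRKY11 (0.949), GRP2B for WRKY29 (0.945), ACA11 for WRKY17 (0.929) and AT3G14395 for WRKY3 (0.924). Among the members themselves, WRKY33 was closest to WRKY25 (r = 0.972) and WRKY6 (0.959), and WRKY3 and WRKY29 ran most nearly opposite to each other (-0.71).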

How the data were processed

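The authors deposited raw counts, 1 whole number per gene locus and library. Per the submitters' processing notes, reads were aligned with STAR to TAIR10, and per the file headers' closing lines counting was by htseq-count. The sources used here give no annotation, version or strand setting. Per the labels' protocols, stranded single-read libraries came from polyadenylated RNA.

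Lines for unassigned reads (9.26% to 12.1% per library) were left out. Genes were tested over the whole table with edgeR 4.0.16 in R 4.3.3 (quasi-likelihood test, TMM, default low-count filter, 1 mean per group over all 12 libraries, Benjamini-Hochberg over 18830 genes). Each SE was taken as the size of the log2 fold change over the root of its F statistic. Of the steps, only the edgeR fit was tested on simulated data, in which few genes were changed in a single group. The simulation held no changes as widespread as those at 12 d. Alternatives were RLE and upper-quartile scaling, no filter, DESeq2 1.42.0, a replicate block, only the groups compared, and leaving out each library. Same-numbered libraries of an age share a harvest date in the labels, so that the block is given. Their deviations from group means showed no positive correlation (r from -0.25 to -0.0038 in 6 pairs, against -0.13 to 0.20 in pairs of unlike number). By the labels, replicates of a group share a planting date and were harvested on successive days, so they also differ in days since planting. Nothing says that replicates came from separate cultures, so p-values cover only spread among these samples, which may be technical. Each pair of replicates differed by more than sampling noise.

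Members and lists were chosen with earlier results of these data known. Named from the lists were the 3 genes with the smallest p at 12 d and genes making up counts of 5 or fewer; MPK6 was named after its values were seen. Genes most like a member were the 3 of highest correlation for WRKY33 and 1 for each other member (log2 CPM, prior count 2). Exon lengths, sequences and positions are from RefSeq TAIR10.1, and proteins were aligned with Biopython 1.88 (BLOSUM62).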

Additional observations from a re-analysis of the deposited data

Results flagged for a closer look

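For 4 genes the snap33 effect differed between the ages by the test of the difference itself (edgeR, 3 libraries a group). The effect was larger at 12 d by 1.32 on the log2 scale for WRKY33, by 0.98 for WRKY25, by 1.06 for WRKY6 and by 1.32 for WRKY29. In the libraries of WRKY33, WRKY25 and WRKY6 the 12 d snap33 values were the highest of the 4 groups, whereas for WRKY29 the WT values at 12 d were the lowest. The label dates put planting of the 12 d snap33 plants 32 to 34 days before harvest, against the age of 12 d in their titles. If those dates are right, genotype and time since planting cannot be told apart in these differences. Groups of 3 libraries were not screened for outlying samples.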

How the results depend on the processing

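Over 889 values of the 10 genes under alternative settings, 850 kept their direction and side of the threshold, 17 lost a call, 14 gained one and 8 changed direction. With the replicate block, 2 genes were called at 5 d, 8 at 12 d, 4 for the difference, 5 over age in WT and 7 in snap33; it ended the 12 d call of WRKY4 and no other call of the 10. Leaving out 1 library gave 1 to 3 called genes at 5 d (1 without WT 5 d replicate 2 or snap33 5 d replicate 3), 7 to 10 at 12 d, 3 to 6 for the difference, 4 to 6 over age in WT and 7 to 8 in snap33. Only values near 0 changed direction. These were WRKY22 at 5 d (-0.0199 without snap33 5 d replicate 3, to 0.38 over left-out libraries), WRKY4 for the difference (-0.0182 with upper-quartile scaling, and -0.13, -0.03 and -0.05 without WT 5 d replicate 3, snap33 5 d replicate 1 or WT 12 d replicate 2, to 0.23), WRKY17 over age in WT (0.0083 without WT 12 d replicate 2, from -0.31) and WRKY3 over age in snap33 (-0.0887 with upper-quartile scaling and -0.0398 without snap33 5 d replicate 2). The WRKY22 over WRKY29 ratio difference moved to 0.01 with a prior count of 2 and ran from -0.12 to 0.075 without 1 library (0.05, 0.0011, 0.02, 0.0071, 0.01 and 0.075 where positive). Over the same settings WRKY3 over WRKY4 ran from -0.96 to -0.75, WRKY11 over WRKY17 from -0.36 to -0.19 (adjusted exact permutation p = 0.03 at -0.36) and WRKY33 over WRKY25 from 0.17 to 0.30 (0.02 at 0.30). The cause was not tested. WRKY26 at 5 d and WRKY29 at 12 d rest on 6 to 35 counts per library, which limits their precision.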
